A study of Mus musculus with 22 samples.

Results

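The REG genes encode small secreted lectin-like proteins, and 6 of them were measured in mouse whole pancreas: Reg1, Reg2, Reg3a, Reg3b, Reg3d and Reg3g. They were chosen by symbol, with their levels in these libraries already known, from a table of raw probe counts that held 8 probes of these genes among 30146 probes and 6 gene symbols among 21450. Reg1 had 3 probes and each of the other genes had 1. All 6 genes had counts, and all 8 probes entered each of the fits given below. The 22 libraries came from C57Bl/6 mice and were made with TempO-Seq, in which pairs of short probes are ligated on the RNA they match and then counted by sequencing. Dams had received subcutaneous TCDD, a dioxin and strong ligand of the aryl hydrocarbon receptor, at 20 ng/kg/d or corn oil, in 2 injections per week, from before mating until they gave birth. Pancreas was taken on the day of birth from the dams and from 1 male and 1 female pup of each litter. By label there were 4 TCDD dams, 4 TCDD female pups and 4 TCDD male pups, against 4 control dams, 3 control female pups and 3 control male pups. Libraries are named here by group and litter number.

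Stage labels and stage genes did not match in 8 libraries, so the REG genes are described in 2 library classes set by the summed counts of Afp and Pnlip. Afp encodes the fetal plasma protein alpha-fetoprotein, and Pnlip encodes pancreatic lipase, a digestive enzyme of mature acinar cells. The 8 adult-type libraries had 40765 to 48925 CPM (counts scaled to a total of 1000000) of Pnlip and 0 to 1.25 CPM of Afp. The 14 newborn-type libraries had 22.3 to 91.6 CPM of Pnlip and 468 to 1487 CPM of Afp, so none lay near the dividing line. Of the adult-type libraries, 6 had the TCDD label (male pups 8, 10 and 11, female pup 6, and dams 8 and 11) and 2 the control label (control dams 5 and 7). Of the newborn-type libraries, 6 had the TCDD label (TCDD dams 6 and 10, TCDD female pups 8, 10 and 11, and TCDD male pup 6) and 8 the control label. The control-label ones were control dams 2 and 4, control female pups 2, 4 and 7, and control male pups 2, 4 and 7. Thus 4 adult-type libraries were labelled as pups and 4 newborn-type libraries as dams, and whether the chemical label of these or any other library holds was not tested. Total counts ranged over 11223816 to 34911410 per library, and 3 counts, taken as the detection floor, amounted to 0.0859 to 0.267 CPM. The 10 acinar marker genes summed to 191513 to 215943 CPM in adult-type libraries and 107053 to 144135 CPM in newborn-type libraries, with Pnlip among them. Of the 8 islet markers, Pdx1, a transcription factor of islet cells, had 0 counts in all libraries.

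REG proteins share a single C-type lectin domain and are secreted. Reg1, the mouse gene for pancreatic stone protein (lithostathine), is made by acinar cells of the exocrine pancreas and released into pancreatic juice. Reg3b, first described as pancreatitis-associated protein, and Reg3g are bactericidal lectins of the intestinal epithelium, and Reg3b is strongly induced in acinar cells by pancreatitis. Cytokines that signal through STAT3, among them IL-6 and IL-22, induce Reg3 genes in epithelia.

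All 6 genes lay next to each other on mouse chromosome 6, in the order Reg3b, Reg3d, Reg3a, Reg2, Reg1 and Reg3g, with no other protein-coding gene between them in the annotation used. All 6 matched the RefSeq promoter table of GRCm38.p6. The 250 bases before the annotated start are printed for Reg1, which varied least between adult-type libraries, for its neighbour Reg2, and for Reg3a and Reg3d, the pair that varied most alike. Capitals mark TATAAA boxes, E-boxes of the form CACCTG, and a bipartite motif, CANNTG followed by TTCCC after 6 other bases (the E-box and TTCCC are in capitals).
Reg1, chr6:78425733-78425982, + strand: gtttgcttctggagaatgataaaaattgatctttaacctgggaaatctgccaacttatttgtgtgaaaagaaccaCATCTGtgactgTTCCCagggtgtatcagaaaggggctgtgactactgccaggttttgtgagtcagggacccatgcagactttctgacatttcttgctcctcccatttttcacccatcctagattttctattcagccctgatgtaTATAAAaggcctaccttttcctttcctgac
Reg2, chr6:78404905-78405154, + strand: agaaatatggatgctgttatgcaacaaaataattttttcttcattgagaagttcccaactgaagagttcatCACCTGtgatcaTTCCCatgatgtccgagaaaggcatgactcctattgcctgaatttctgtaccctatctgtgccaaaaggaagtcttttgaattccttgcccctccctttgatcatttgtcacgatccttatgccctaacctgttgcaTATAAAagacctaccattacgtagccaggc
Reg3a, chr6:78380459-78380708, + strand: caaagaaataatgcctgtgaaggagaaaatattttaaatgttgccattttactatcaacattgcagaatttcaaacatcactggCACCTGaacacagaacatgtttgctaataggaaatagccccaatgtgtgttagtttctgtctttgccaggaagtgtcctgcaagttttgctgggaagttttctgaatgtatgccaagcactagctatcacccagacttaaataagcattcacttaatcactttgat
Reg3d, chr6:78378866-78379115, - strand: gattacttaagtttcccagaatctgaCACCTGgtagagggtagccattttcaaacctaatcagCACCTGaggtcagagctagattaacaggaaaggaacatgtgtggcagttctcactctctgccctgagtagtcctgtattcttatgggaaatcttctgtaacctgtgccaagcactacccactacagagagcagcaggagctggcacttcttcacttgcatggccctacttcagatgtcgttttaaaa
The bipartite motif joins an E-box to TTCCC, which is the general layout of sites bound by PTF1, the transcription factor complex of acinar cells. It was present in Reg1 and Reg2 and in 0.295% of 32851 promoter windows of the same length, on either strand. CACCTG, which can be the E-box of that motif, was present in Reg2, Reg3a, Reg3b and Reg3d, against 17.2% of all windows, and TATAAA in Reg1, Reg2, Reg3b and Reg3g, against 12.4%. TTCNNNGAA, the letters of a STAT site, were present in Reg3b and Reg3d, against 7.02% of windows. GCGTG, the core letters recognised by the aryl hydrocarbon receptor, were present in 28.2% of windows and in 0 of the 6 REG windows. The motifs were chosen with these sequences in view, and a match is not evidence of binding. The upstream windows of the 6 genes were 46.1% to 68.4% identical in pairs, with the highest value between Reg3b and Reg3g. The same pair had the longest stretch shared by 2 transcripts, 35 bases, so part of a probe's signal could be shared between these genes if a probe lay there, but probe positions were not analysed here.

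Reg1, the stone protein gene, was higher in adult-type than in newborn-type libraries. Its lowest, median and highest values were 68524, 78390 and 85017 CPM in adult-type libraries and 19811, 26074 and 34399 CPM in newborn-type libraries, a ratio of medians of 3.01. The classes did not overlap. The 3 Reg1 probes gave ratios of 3.01, 3.04 and 3.02, so the class difference did not depend on which probe was read. Because the classes were set by measured genes, this and the other differences between them are descriptions with no test. In whole tissue, fewer cells of a type and less RNA per cell cannot be told apart.

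Reg2, the neighbour of Reg1 and a gene also described in acinar cells and islets, had the widest class difference of the family. It had 670, 2074 and 4780 CPM (lowest, median and highest) in adult-type libraries and 1.82, 2.84 and 5.44 CPM in newborn-type libraries, a ratio of medians of 731. Even the lowest adult-type library, TCDD dam 8, stood 123-fold above the highest newborn-type library, control female pup 2. The newborn-type values rested on 24 to 111 counts per library. The newborn-type median was 0.137% of the adult-type median for Reg2, beside 0.0864% for Pnlip, and whether reads carried over between libraries add to such low values was not tested. Across the 14 newborn-type libraries Reg2 and Pnlip had a Pearson r of 0.04 on the log2(CPM + 1) scale. Control female pup 2 also had the most probes with a count, 26420, of all libraries. There were 16.7 to 103 Reg1 counts per Reg2 count in adult-type libraries and 5309 to 14199 in newborn-type libraries.

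Among the Reg3 genes, Reg3d was the one with the most counts in both classes. It had 821, 1627 and 2274 CPM in adult-type libraries and 109, 156 and 212 CPM in newborn-type libraries, with a ratio of medians of 10.4 and no overlap. Reg3a, whose human counterpart is a bactericidal lectin of the gut, had 13.8, 73.9 and 245 CPM in adult-type libraries and 0.458, 1.05 and 1.90 CPM in newborn-type libraries, a ratio of 70.2 and again no overlap. Reg3b had 1.65, 16.2 and 39.3 CPM in adult-type libraries and 0.115, 0.760 and 1.34 CPM in newborn-type libraries, a ratio of 21.4. Its classes stayed apart by only 1.23-fold, between the lowest adult-type and the highest newborn-type library. Reg3g had 0.673, 4.25 and 34.1 CPM in adult-type libraries and 0, 0.616 and 1.11 CPM in newborn-type libraries, a ratio of 6.90. The Reg3g classes overlapped. In newborn-type pancreas Reg3a, Reg3b and Reg3g had median counts of 15.5, 11.5 and 9.5 per library, and 2 of the 84 values of the 6 genes there were under the 3-count floor. Reg4, a relative outside this chromosome 6 group, had 0 to 1 counts in adult-type and 0 to 6 counts in newborn-type libraries.

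For 5 of the 6 genes, every adult-type library lay above every newborn-type library. Among the 6765 genes with a mean of at least 5 CPM over all libraries, 0.68% did so on library totals, and 86% lay lower in every adult-type library. These shares move with the scaling and were not computed on other totals. Those 5 genes were all in that set, and Reg3g was not, with a mean of 3.30 CPM. Reg2, Reg3a and Reg3b entered it only through their adult-type values, with newborn-type means of 3.03, 1.20 and 0.708 CPM. A small number of probes took much of each library, which lowers the CPM of other genes. The 20 most abundant, 1 of them a Reg1 probe, held 63.0% to 69.7% of adult-type counts and 45.7% to 58.5% of newborn-type counts. The median log2 ratio of the 6 REG genes was 3.90, from 1.59 to 9.51, where that of all 6765 genes was -1.91. With totals scaled by TMM (trimmed mean of M-values), the REG median was 5.74 and the all-gene median -0.07. With the 20 probes left out of the totals, the 2 medians were 4.53 and -1.28, so the 6 genes were higher in adult-type libraries under each scaling. Together they took 7.05% to 8.98% of adult-type counts and 2.00% to 3.45% of newborn-type counts. Reg1 made up 91.6% to 97.9% of the REG counts in adult-type libraries and 99.1% to 99.7% in newborn-type libraries.

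**Figure D1:**
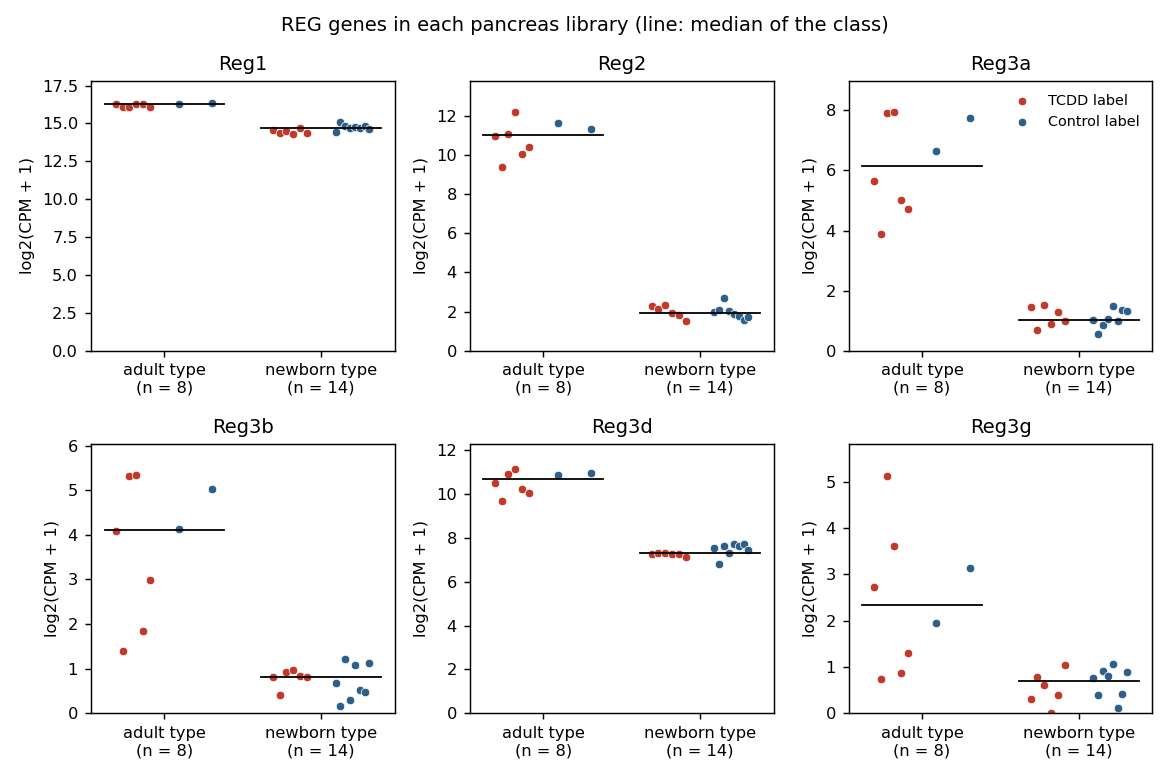
Each panel plots 1 REG gene as log2(CPM + 1) in the 8 adult-type (left) and 14 newborn-type libraries (right), with 1 point per library, red for the TCDD label and blue for the control label, and a line at the class median. Each gene but Reg3g separates the classes, and Reg2, Reg3a, Reg3b and Reg3g are spread more widely in CPM among the adult-type libraries than Reg1.

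Within the adult type, Reg1, with its 3 probes summed, varied least between libraries and the other 5 genes varied more. The standard deviation (SD) of log2(CPM + 1) was 0.12 for Reg1, at percentile 5.06 of the 3971 genes with a mean of at least 5 CPM in that class. For Reg1 this depends on the scaling: its SD was 0.26 on TMM-scaled totals and 0.15 on totals without the 20 most abundant probes. It also depends on the probe: on library totals the 3 Reg1 probes had SDs of 0.11, 0.35 and 0.12. The second probe, with a median of 3038 CPM, had an r of 0.27 with the third, with a median of 61114 CPM. On library totals the SD was 0.90 for Reg2 (percentile 98.6), 1.60 for Reg3a (99.8), 1.54 for Reg3b (99.7), 0.52 for Reg3d (93.0) and 1.52 for Reg3g (99.7), where the median of all genes was 0.27 and the 95th percentile 0.568. Reg3a, Reg3b and Reg3g thus varied more than nearly all of these 3971 genes, of which only 8, 9 and 11 had a larger SD. Reg3g entered this set through its highest values, with a mean of 8.07 CPM but a median of 4.25 CPM. Its SD was 1.06 over the adult-type libraries labelled as dams. The highest library exceeded the lowest by 1.24-fold for Reg1, 2.77-fold for Reg3d, 7.14-fold for Reg2, 17.8-fold for Reg3a, 23.8-fold for Reg3b and 50.7-fold for Reg3g.

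The same libraries tended to be high or low for all 5 variable genes. TCDD dam 8 was the lowest of the 8 for each of them, with 670 CPM of Reg2, 13.8 of Reg3a, 1.65 of Reg3b, 821 of Reg3d and 0.673 of Reg3g. TCDD male pup 10 had 4780 CPM of Reg2, 245 of Reg3a, 39.3 of Reg3b and 2274 of Reg3d, the highest of each, and 11.2 CPM of Reg3g, the second highest. TCDD female pup 6 had the highest Reg3g, 34.1 CPM, with 240 CPM of Reg3a and 39.1 of Reg3b close to the highest. These libraries carried the TCDD label at both ends of the range. Between them, TCDD dam 11 had 2002 CPM of Reg2, 48.8 of Reg3a and 16.0 of Reg3b, and TCDD male pup 8 had 1373, 25.1 and 6.98 CPM of these genes. TCDD male pup 11 was near the low end, with 1054 CPM of Reg2, 31.5 of Reg3a and 2.61 of Reg3b. Control dam 7 had 2583 CPM of Reg2, 216 of Reg3a and 31.5 of Reg3b, and control dam 5 had 3137, 99.1 and 16.5 CPM. TCDD female pup 6, TCDD male pup 10 and control dam 7 were among the 4 highest libraries for all 5 genes. Reg1 in the same libraries stayed between 68524 and 85017 CPM, with TCDD male pup 8 lowest and control dam 7 highest.

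**Figure D2:**
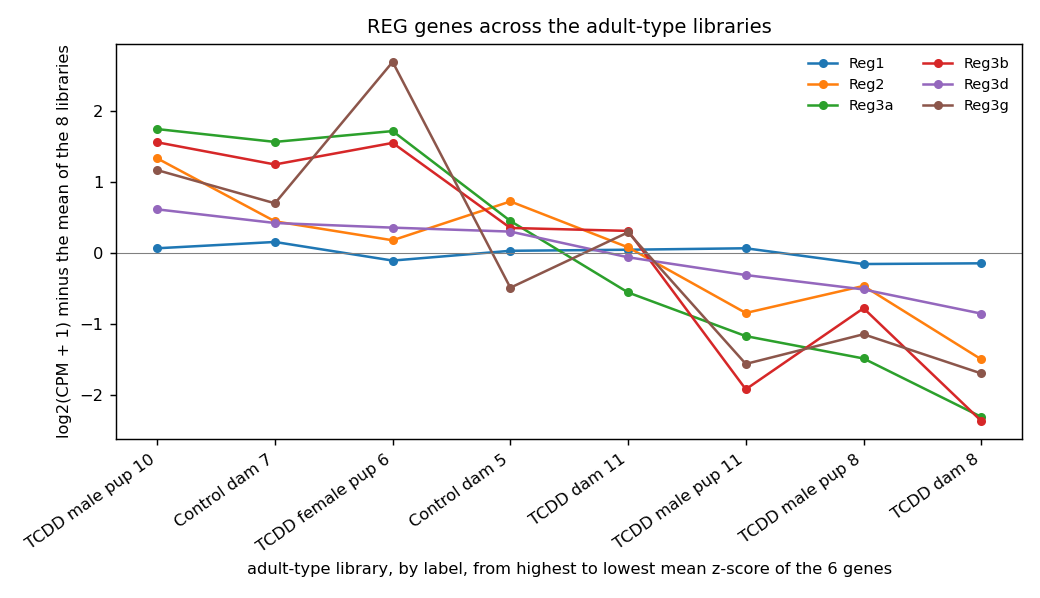
The plot gives log2(CPM + 1) of each REG gene minus its mean over the 8 adult-type libraries, which run from the highest to the lowest mean z-score of the 6 genes and are named by their labels. In CPM Reg1 stays near 0 in each, while the other 5 genes are all high in TCDD male pup 10 and all lowest in TCDD dam 8.

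Across the 8 adult-type libraries, the 10 pairs formed by Reg2, Reg3a, Reg3b, Reg3d and Reg3g had Pearson correlations of 0.67 to 0.97 on the log2(CPM + 1) scale, with a median of 0.90. Spearman's rho was 0.76 to 0.98. Without the 2 libraries farthest from the median of the first gene of each pair, Pearson's r was 0.52 to 0.96, with a median of 0.84. Reg3a and Reg3d were the most alike (0.97), and each was the other's closest among 3970 genes. Reg3d was also the closest gene to Reg2 (0.94), while Reg2 and Reg3g were the least alike pair (0.67). Other pairs ranked farther down. By r to Reg3g among the 3970 genes, Reg3b was at rank 191, Reg3a at 307, Reg3d at 748 and Reg2 at 1315. By r to Reg3a, Reg3b was at rank 14, Reg3g at 106 and Reg2 at 131. These libraries share a tissue, a panel and a small number of points, so the correlations are descriptions and carry no p. The mean z-score of the 6 genes had a Pearson r of -0.55 with total count, -0.20 with the number of probes with a count and 0.58 with the TMM factor, and the part of these in the co-variation was not tested.

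The correlations of Reg1 with the other 5 genes depended on the libraries and on the scaling. On library totals Pearson's r was 0.18 to 0.62 and Spearman's rho 0.40 to 0.71 over the 8 adult-type libraries, and r was -0.53 to 0.08 without the 2 farthest libraries. Without TCDD female pup 6 it was 0.79 with Reg3a, 0.64 with Reg3b and 0.67 with Reg3g. Over the 4 adult-type libraries labelled as dams it was 0.86 to 0.98. With TMM-scaled totals its r was -0.28 with Reg3a, -0.37 with Reg3b and -0.57 with Reg3g, and with totals that left out the 20 most abundant probes the 3 values were -0.02, -0.11 and -0.37. Since Reg1 itself takes several percent of each library, its CPM and the scaling are not independent. A Reg1 probe is also among the 20 left out of those totals, while it still counts toward Reg1.

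**Figure D3:**
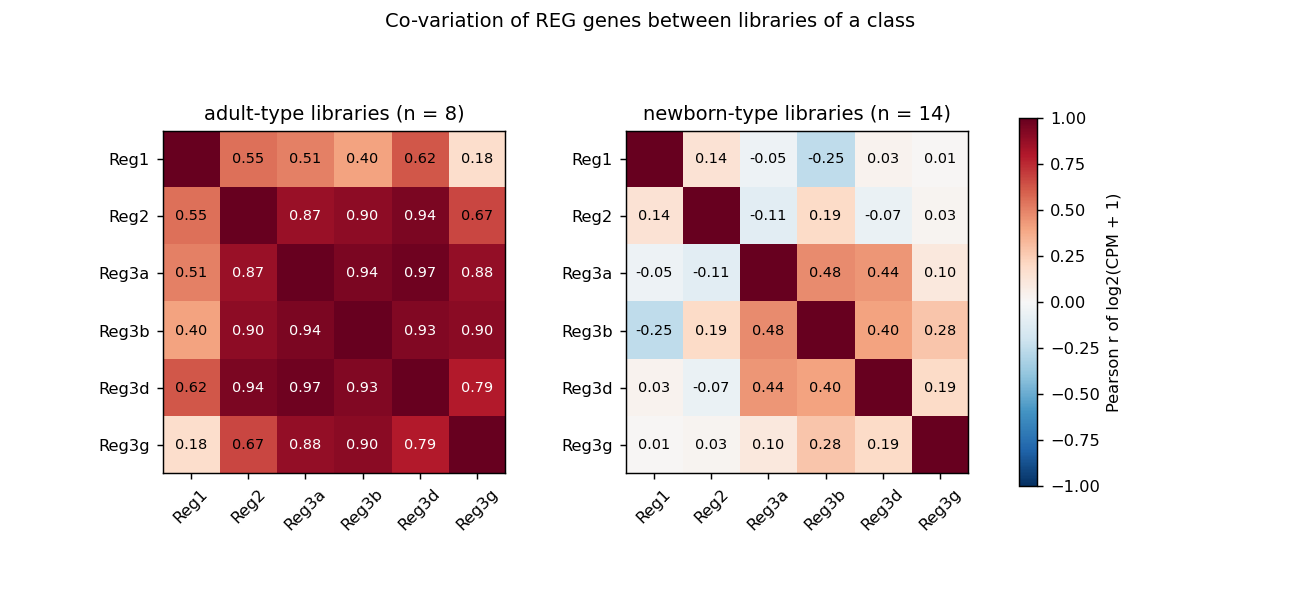
The 2 maps give Pearson's r of log2(CPM + 1) for each pair of REG genes over the 8 adult-type libraries (left) and the 14 newborn-type libraries (right), on a colour scale from -1 to 1. In the adult type the 5 genes other than Reg1 form a block of 0.67 to 0.97, and in the newborn type no pair exceeds 0.48.

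Outside the family, the genes most like the mean REG pattern in adult-type libraries were Mtmr9 (a myotubularin-related protein; r = 0.97), Ap3b1 (a subunit of the AP-3 vesicle adaptor; 0.95), Pitrm1 (a mitochondrial peptidase; 0.95), Pycard (the inflammasome adaptor ASC; 0.94), Lyrm9 (0.94), Wdr3 (0.93), Trmt11 (a tRNA methyltransferase; 0.93) and Smarcal1 (a DNA annealing helicase; 0.93). The most opposite were Erp44 (an endoplasmic reticulum chaperone; -0.95), Dbt (a subunit of the branched-chain ketoacid dehydrogenase; -0.89), Fgf21 (a hormone secreted by liver and acinar cells; -0.85) and Ndufv3 (a subunit of respiratory complex I; -0.84). High values were common: 12.1% of the 3965 other genes had an r of at least 0.7. The median r of these genes was 0.37, and 0.883% had an r of -0.7 or less, so the shift was to 1 side. The levels of the 8 closest genes lay between 2.81 and 19.3 CPM.

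Taken gene by gene in adult-type libraries, the closest genes outside the family were Hacd1 (0.96), 3110082I17Rik (0.91) and Ube2v2 (0.90) for Reg1, and Eif2b3 (0.93), Mtmr9 (0.90) and Gm42906 (0.89) for Reg2. For Reg3a they were Lyrm9 (0.97), Smarcal1 (0.96) and Zfp9 (0.96), and for Reg3d Mtmr9 (0.95), Dkc1 (0.95) and Trmt11 (0.94). For Reg3b they were Cdkal1 (0.98), Bin1 (0.97) and Ap3b1 (0.95). For Reg3g they were Nfx1 (0.99), Snd1 (0.99) and Syne4 (0.98), and the levels of Snd1 reached from 9.24 to 41.5 CPM and those of Syne4 from 7.03 to 74.2 CPM.

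Genes of the pathway known to induce REG genes were set beside the same pattern. Of 22 genes for inducing cytokines, their receptors and the STAT3 pathway, 8 had a mean of at least 5 CPM in adult-type libraries, and 1 of these 8 had an r of at least 0.7 with the mean REG pattern, near the 12.1% of all genes. It was Extl3 (0.81), described as a receptor of REG proteins rather than an inducer of REG genes, and it was named after its value was seen. The other genes of this list with a mean of at least 5 CPM had r values from 0.03 (Ptpn2) to 0.46 (Jak1). Il22, the cytokine gene, had 0 counts in every adult-type library. Of 29 genes of acinar injury and the acute phase on the panel, 9 had a mean of at least 5 CPM, 0 of these reached 0.7, and their median r was 0.26. Of 18 genes of the unfolded protein and stress response on the panel, 8 had a mean of at least 5 CPM, and of these 0 reached 0.7 and 1, Fgf21, reached -0.7, where 0.883% of all 3965 genes did. The acinar markers gave 0 of 10, with a median of -0.15. Among marker lists of other cell types, the summed intestinal markers had an r of 0.70 with the REG pattern. They were at 0.366 to 5.60 CPM in adult-type libraries. Cdh17 and Sis, of the intestinal brush border and its cell junctions, had 0 counts there. In newborn-type libraries the sum was 232 to 1101 CPM, with a median of 477 CPM. Of its genes, Apoa1 and Fabp1 had medians of 239 and 140 CPM there, whereas Cdh17 and Sis reached at most 0.202 and 0.149 CPM. Summed liver markers were at 631 to 1995 CPM in the same newborn-type libraries. Afp, which set the classes, is among them and had 468 to 1487 CPM there. Whether the newborn-type sum of intestinal markers comes from intestinal cells was not tested. TCDD female pup 6, with the highest Reg3g, had 3.95 CPM of intestinal markers, and control dam 5, with the highest sum of 5.60 CPM, had 2.86 CPM of Reg3g. The summed islet, macrophage and neutrophil, lymphocyte, duct, fibroblast, adipocyte and liver markers had r values of 0.40, 0.14, -0.05, -0.07, 0.09, -0.24 and 0.19. The part of these other cells in the REG pattern was not tested.

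Among newborn-type libraries the SD of log2(CPM + 1) was 0.22 for Reg1 and 0.26 for Reg3d, at percentiles 36.6 and 59.4 of 7579 genes with a median of 0.24. The SD of Reg1 there was 0.36 on TMM-scaled totals and 0.30 without the 20 most abundant probes. On library totals the SD was 0.31 for Reg2, 0.31 for Reg3a, 0.32 for Reg3b and 0.34 for Reg3g. Each of these 4 genes had a mean under 5 CPM there, and the pseudocount of 1 CPM narrows the spread at such levels. With a pseudocount of 0.1 CPM the SD was 0.40 for Reg2, 0.56 for Reg3a, 0.80 for Reg3b and 1.05 for Reg3g. Reg3b spanned 11.7-fold between its lowest and highest newborn-type library, at 3 to 19 counts. The 15 pairs of REG genes had Pearson correlations of -0.25 to 0.48, with a median of 0.10. Pairs other than that of Reg1 and Reg3d involve counts too low for a weak correlation to be read, and Reg1 and Reg3d had an r of 0.03 over all 14 libraries and up to 0.69 when 1 library was left out. That library was control dam 4, the most deeply counted, which had the highest Reg1 (34399 CPM) and the lowest Reg3d (109 CPM) of the newborn type on library totals. Its TMM factor in the newborn-type fit was 0.757, so its place depends on the scaling. Over all 14 libraries the r of Reg1 and Reg3d was 0.45 on TMM-scaled totals and 0.29 without the 20 most abundant probes. The difference between the classes in co-variation was not tested.

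The closest genes to Reg1 in newborn-type libraries were 3 of the acinar enzyme genes, Cpb1 (0.74), Rnase1 (0.64) and Amy2a4 (0.61). They encode a carboxypeptidase, pancreatic ribonuclease and an amylase. Like Reg1 they take a large share of each library, with medians of 77677, 59368 and 26296 CPM. The r values are on library totals, and how far they depend on the scaling or on control dam 4 was not tested. For Reg3d they were Churc1 (0.86), Zp3 (0.85) and Hist1h1c (0.84), for Reg2 Sp140 (0.72), Rarres2 (0.69) and Cd68 (0.69), for Reg3a Pafah2 (0.80), Zfp64 (0.76) and Akr1c12 (0.75), and for Reg3b Cycs (0.88), Spcs3 (0.86) and Skp2 (0.84). To the mean pattern of these 5 genes the closest were Ly6a (0.85), Akr1c12 (0.82), 0610009B22Rik (0.79), Car9 (0.76), Osgepl1 (0.75), Ms4a7 (0.72), Gtf2h5 (0.70) and Cdkn3 (0.70), and the most opposite Dtx4 (-0.86), Ddx49 (-0.83), Sncg (-0.81) and Pprc1 (-0.81). Reg3g was left out of these patterns there, since its median count was under 10.

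The study compared maternal TCDD with corn oil, and the comparisons that follow hold for the chemical labels as given. In the newborn type, no REG probe passed the test between the labels in edgeR's quasi-likelihood fit with Benjamini-Hochberg adjustment, 0 of 8, as 0% of 17109 probes did (554 had an unadjusted p under 0.05, and 0 were called by DESeq2 or limma-voom). Reg3d had 140, 153 and 156 CPM (lowest, median and highest) in the 6 libraries with the TCDD label and 109, 190 and 212 CPM in the 8 with the control label. On library totals, all control-label libraries but control dam 4 lay above every TCDD-label library, 7 of 8. The lowest of these 7, control female pup 4, had 156.9 CPM, barely above the 156.1 CPM of TCDD female pup 10. The share of all genes split in this way is not given here. The log2 fold change of Reg3d was -0.38 ± 0.0959 (SE), with an edgeR adjusted p of 1.0 over all probes. Without control dam 4 it was -0.43, with an edgeR adjusted p of 0.70, and with only the 4 TCDD and 6 control libraries labelled as pups it was -0.48, with an edgeR adjusted p of 0.646. Reg1 had 19811, 22376 and 26386 CPM with the TCDD label and 21763, 27277 and 34399 CPM with the control label. Of 8 control-label libraries, 6 lay above every TCDD-label library, the lowest of them, control male pup 2, by a narrow margin at 26403 CPM. The 3 Reg1 probes had log2 fold changes of -0.37 ± 0.113, -0.29 ± 0.151 and -0.48 ± 0.145 (SE). None was past the adjusted threshold either. The summed acinar markers were 115138 to 133506 CPM with the TCDD label and 107053 to 144135 CPM with the control label. The fold changes of Reg2, Reg3a, Reg3b and Reg3g were -0.11 ± 0.239, 0.03 ± 0.333, 0.04 ± 0.436 and -0.60 ± 0.516 on the log2 scale (SE), all with overlapping groups.

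**Figure D4:**
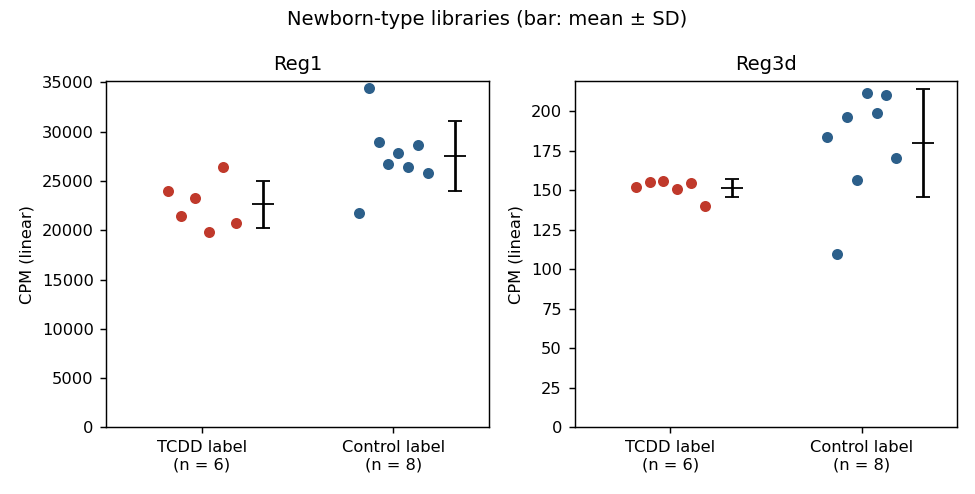
Reg1 (left) and Reg3d (right) are plotted in CPM on a linear axis from 0 for the newborn-type libraries, TCDD label (n = 6) before control label (n = 8), with 1 point per library and a bar for mean ± SD. The labels overlap in both genes, and for Reg3d the single control-label point below all TCDD-label points on library totals is control dam 4.

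In the adult type, 0 of 8 REG probes and 0% of 13513 probes passed between the 6 libraries with the TCDD label and the 2 with the control label (388 had an unadjusted p under 0.05, and 0 were called by DESeq2 or limma-voom). Reg2 had 670, 1688 and 4780 CPM with the TCDD label and 2583 and 3137 CPM with the control label. Reg3a had 13.8, 40.1 and 245 CPM with the TCDD label and 99.1 and 216 CPM with the control label. For each of the 6 genes the TCDD-label values reached around or past the control-label values, so the groups overlapped. The log2 fold changes were -0.42 ± 0.480 for Reg2, -0.59 ± 0.755 for Reg3a, -0.38 ± 0.766 for Reg3b, -0.29 ± 0.271 for Reg3d and 0.73 ± 1.002 for Reg3g (SE), and between -0.06 and 0.03 for the 3 Reg1 probes. These values moved with the libraries and the tool: without control dam 5 Reg2 was -0.10, and without control dam 7 Reg3a was -0.12 and Reg3b -0.03, each leaving 1 control assumed to vary like the TCDD-label libraries. With limma-voom Reg3a was -1.24 and Reg3b -1.08. With only the 2 TCDD and 2 control libraries labelled as dams, Reg3a was -2.05, Reg2 -0.89 and Reg3b -1.17, and over all settings tried the lowest adjusted p of Reg3a was 0.280. Whether the label difference itself differed between the classes was not tested.

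Compared as labelled, the groups mixed the classes, and the part of that mix in the label differences was not tested. Among male pups, 3 of the 4 TCDD libraries and 0 of the 3 control libraries were adult-type, and the 8 REG probes had log2 fold changes of 3.03 to 11.54. None passed in edgeR (adjusted p = 0.273 for each; 0% of 16176 probes passed and 2703 had an unadjusted p under 0.05), whereas DESeq2 called 514 probes, 417 higher and 97 lower, all 8 REG probes among the higher. Without TCDD male pup 6, the newborn-type one, edgeR called 6451 probes, and that fit sets 3 adult-type against 3 newborn-type libraries. With TCDD male pup 6 as the only TCDD library it called 3 and no REG probe, in a fit where the spread comes from the 3 control libraries alone and the lone TCDD library is assumed to vary like them. Among female pups, 1 of the 4 TCDD libraries and 0 of the 3 control libraries were adult-type, the REG probes had log2 fold changes of 1.16 to 8.62, and 0% of 17513 probes passed in edgeR (299 had an unadjusted p under 0.05, and 0 were called by DESeq2). Among dams, 2 of 4 libraries were adult-type under each label, the REG probes had log2 fold changes of -2.02 to 0.09, and 0% of 15594 probes passed (150 had an unadjusted p under 0.05, and 0 were called by DESeq2).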

How the data were processed

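For the 22 libraries the authors deposited raw probe counts in 1 table, with no scaling (whole numbers with unequal library totals). RNA was extracted with a Qiagen RNeasy kit and libraries were sequenced on an Illumina NextSeq500, per the labels' protocols. The submitters' processing notes name bcl2fastq 2.17.1.14 for making FASTQ files. Aligner and build: not given in the sources used here. CPM was computed here as counts scaled to a total of 1000000 over all probes, with the probes of a gene summed, and logs were taken as log2(CPM + 1). Because abundant digestive enzymes take a large share of each library, CPM of other genes moves with that share, and TMM-scaled totals and totals without the 20 most abundant probes were tried beside it. Fits used edgeR 4.0.16 in R 4.3.3 (quasi-likelihood test, TMM, filterByExpr, adjusted p under 0.05 over all probes tested), with no covariate, on each class and on each pair of label groups. DESeq2 1.42.0 and limma 3.58.1 (voom) were alternatives, and the fitting script was tested on simulated data. Descriptions used Python 3.11.15 with pandas 2.3.3 and scipy 1.17.1. The class of a library came from the summed counts of Afp and Pnlip, and the labels were kept as given. Labels do not say that libraries of a group came from separate mice other than by litter number, so p-values measure the spread between these libraries. No libraries looked like copies: the lowest chi-square per degree of freedom between libraries of a group was 7.47. Detection floors cover counting error only. Members, classes, gene lists and motifs were chosen with earlier results of these data known. Genes outside the family were named by a rule: per class, the 8 highest and 4 lowest r to the mean z-score of the REG genes with a median of at least 10 counts, and the 3 highest for each such gene, among genes with a mean of at least 5 CPM. From lists, genes past the threshold in a fit and those of highest mean were to be named, and exceptions are stated. Promoter windows, their build and gene order come from RefSeq, and transcripts from GENCODE. Litter numbers are nested in the chemical labels. Libraries of the same litter number had deviations from group means correlated at -0.29 to -0.24 over 2 pairs in the adult type and -0.29 to 0.26 over 9 pairs in the newborn type.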

Additional observations from a re-analysis of the deposited data

Results flagged for a closer look

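Of 48 combinations of a gene and a group of 4 to 10 libraries, 17 had a library whose gap to its nearest neighbour was large for the range of the group by Dixon's 95% criterion. About 1 in 20 such groups is picked out by chance, and the 6 genes share libraries, so the 17 are not independent.

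Most of them lay in groups formed by label, where 1 adult-type library stood among newborn-type ones or differed from other adult-type ones. TCDD female pup 6, the adult-type one of the 4 libraries labelled TCDD female pup, was highest for all 6 genes, with 70874 CPM of Reg1, 2146 of Reg2, 240 of Reg3a, 39.1 of Reg3b, 1902 of Reg3d and 34.1 of Reg3g. Among the libraries labelled TCDD dam, TCDD dam 11 stood apart with 16.0 CPM of Reg3b and 5.64 CPM of Reg3g, where the next highest were 1.65 CPM of Reg3b in TCDD dam 8, the other adult-type one, and 0.720 CPM of Reg3g in TCDD dam 6, a newborn-type one. Among those labelled TCDD male pup, TCDD male pup 10 stood apart with 245 CPM of Reg3a, 39.3 of Reg3b and 11.2 of Reg3g.

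Within a class, the 34.1 CPM of Reg3g in TCDD female pup 6 stood apart both from the 8 adult-type libraries and from the 6 of them with the TCDD label, where the next highest was 11.2 CPM. The 4780 CPM of Reg2 in TCDD male pup 10 stood apart from the other TCDD-label adult-type libraries, the next of which had 2146 CPM. In the newborn type with the TCDD label, Reg3b was low in TCDD dam 6 (0.332 CPM) and Reg3d was low in TCDD male pup 6 (140 CPM). In the newborn type with the control label, Reg2 was high in control female pup 2 (5.44 CPM, where the next had 3.18 CPM).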

How the results depend on the processing

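The level of the REG genes in the 2 classes kept its direction under each setting tried, with a median log2 ratio of 5.74 on TMM-scaled totals against 3.90. The median SD of the 6 genes in newborn-type libraries was 0.26 on TMM-scaled totals, 0.40 without the 20 most abundant probes and 0.48 with a pseudocount of 0.1 CPM, against 0.31. Counts of probes called between labels stayed at 0 with these exceptions, whose cause was not tested. In the adult type 112 probes were called without a low-count filter, and 0 to 2 when each library was left out, with 2 called without control dam 5, where the lone control is assumed to vary like the other libraries. In male pups 514 were called by DESeq2, and 0 to 6451 when each library was left out. The 6451 were called without TCDD male pup 6, where label and class form the same split and cannot be told apart. The male pup fit with libraries whose class matched their label left 1 TCDD library and is given above.

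Some fold changes turned sign, none of them past the threshold. In the newborn type, Reg3a was -0.0092 with limma-voom and -0.12 with libraries whose label matched the class, and Reg3b was -0.047 with those libraries. Leaving out each library in turn gave -0.15 to 0.19 for Reg3a, -0.23 to 0.045 for Reg2 and -0.15 to 0.25 for Reg3b. In the adult type, Reg3g was -0.20 with limma-voom and -0.46 with libraries whose label matched the class. Leaving out each library gave -0.20 to 1.41 for Reg3g, and -0.064 to 0.13, -0.19 to 0.069 and -0.071 to 0.13 for the 3 Reg1 probes. In adult-type libraries the r of Reg1 with Reg3a and Reg3b was -0.28 and -0.37 on TMM-scaled totals and -0.016 and -0.11 without the 20 most abundant probes. It was -0.06 to 0.67 with Reg3g when each library was left out. In newborn-type libraries the r of Reg1 and Reg3b was -0.42 to 0.077 when each library was left out.

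With litter number as a random replicate block (limma-voom, consensus correlation 0.0706 in the adult type and 0.0129 in the newborn type), 0 probes were called in either class. With the block, Reg3d was -0.37 and Reg3a -0.010 in the newborn type, and Reg3g -0.15 in the adult type. No paired analysis was possible because TCDD and control groups share no litter number.

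Low counts of Reg3a, Reg3b and Reg3g limit what newborn-type libraries can show, and 2 control libraries limit the adult type.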
